A study of Mus musculus with 16 samples.

Results

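The keratin-associated proteins (KRTAP) and a set of hair matrix genes were followed through 16 RNA sequencing libraries of mouse back skin and of sorted hair follicle stem cells (HFSC). The members were the 58 genes, in 27 subfamilies, whose mouse symbol starts with Krtap and a number, together with 7 others: Tchh, Padi3, S100a3, Hoxc13, Msx2, Foxn1 and Dlx3. All 65 had a row in both deposited tables, which hold 55357 gene rows for skin and 56953 for HFSC. The skin libraries came from back skin of C57BL/6 mice aged 8 months, 5 labelled control and 5 labelled GRK2 eKO, an abbreviation the labels do not spell out (eKO below). The HFSC libraries, 3 control and 3 eKO, came from bulge cells sorted as CD34+ and α6-integrin+, whose sample labels give 18 months of age while the series text gives 8 months. The promoter or Cre driver behind the eKO genotype is not given in the labels used here, nor are sex or the number of animals behind each library. The p-values below therefore measure the spread between these libraries only.

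Keratin-associated proteins fill the space between the keratin filaments of the hair shaft and bind them to each other through disulfide bonds and aromatic residues. By amino acid content they fall into high-sulfur, ultrahigh-sulfur and high glycine-tyrosine classes, and they are made late, in the shaft cortex and cuticle of a growing follicle, above the dividing matrix. Hoxc13, Msx2, Dlx3 and Foxn1 encode transcription factors of the matrix and of the cells leaving it. Padi3 encodes an enzyme that converts arginine to citrulline, Tchh encodes trichohyalin, one of its substrates in the inner root sheath and medulla, and S100a3 encodes a calcium-binding protein of the hair cuticle. A resting follicle has no active matrix, so such transcripts are known to come and go with the hair cycle.

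Of the KRTAP genes, 16 were high-sulfur, 20 ultrahigh-sulfur and 16 high glycine-tyrosine by subfamily, and 6 were left unassigned (subfamilies 28, 29 and 31, and Krtap16-3). These classes were assigned from general knowledge and not from the deposited data. Subfamilies 10 and 12, placed as ultrahigh-sulfur here, had no reads in any library. Only these counts, and no class level, rest on where those subfamilies are placed. They sit in clusters: in the GENCODE M21 annotation 25 lie on chromosome 16, 23 on chromosome 11 beside the type I hair keratin genes, 5 on chromosome 7, 3 on chromosome 10 and 2 on chromosome 1. The RefSeq promoter table (build GRCm38.p6, not the authors' build) held 51 of the 58, each as 300 bases from 250 before to 50 after the start of transcription. The 250 bases before the start are shown for 4 genes on which the results turn: Krtap15 and Krtap17-1, the KRTAP genes with enough reads for the test in stem cells, and Krtap9-3 and Krtap8-1, the highest in skin of the ultrahigh-sulfur and high glycine-tyrosine classes among those with a window (Krtap7-1 had no entry). Capitals mark TATAAA on the gene strand starting 40 to 20 bases before the start, and, on either strand, the 8-letter forms TTTATN or TTAATN followed by AA, AG, GA or GG, which were searched for HOXC13; TATAAA and these forms may share bases.
Krtap15, chr16:88828759-88829008, + strand: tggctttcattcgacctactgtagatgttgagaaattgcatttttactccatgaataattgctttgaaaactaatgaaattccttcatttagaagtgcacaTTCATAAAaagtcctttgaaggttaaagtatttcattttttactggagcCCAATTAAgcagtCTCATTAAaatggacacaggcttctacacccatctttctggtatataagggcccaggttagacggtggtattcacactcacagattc
Krtap17-1, chr11:99993995-99994244, - strand: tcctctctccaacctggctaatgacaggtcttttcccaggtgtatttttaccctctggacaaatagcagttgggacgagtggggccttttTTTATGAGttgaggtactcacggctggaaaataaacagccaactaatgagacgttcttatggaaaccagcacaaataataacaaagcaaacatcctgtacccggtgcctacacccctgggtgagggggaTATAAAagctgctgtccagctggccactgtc
Krtap9-3, chr11:99598107-99598356, - strand: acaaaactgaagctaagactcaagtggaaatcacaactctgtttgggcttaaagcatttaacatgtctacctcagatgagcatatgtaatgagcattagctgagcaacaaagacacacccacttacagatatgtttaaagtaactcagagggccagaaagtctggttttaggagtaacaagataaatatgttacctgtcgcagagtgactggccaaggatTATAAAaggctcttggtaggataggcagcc
Krtap8-1, chr16:89487953-89488202, - strand: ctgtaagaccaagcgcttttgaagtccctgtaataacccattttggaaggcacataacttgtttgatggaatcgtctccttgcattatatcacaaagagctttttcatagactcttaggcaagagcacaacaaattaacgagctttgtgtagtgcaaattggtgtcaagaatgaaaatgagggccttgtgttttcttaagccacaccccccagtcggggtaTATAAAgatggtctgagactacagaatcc

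The TATAAA letters stood at that place in 3 of these 4, starting 31 bases before the start in Krtap17-1, 30 in Krtap9-3 and 29 in Krtap8-1, and Krtap15 did not hold them there. Krtap15 held the HOXC13 forms 3 times in the bases shown, Krtap17-1 held them 1 time, and neither Krtap9-3 nor Krtap8-1 held them. Over the 51 KRTAP windows, 31 (60.8%) had TATAAA at that place, against 1.99% of all 32851 RefSeq windows of the same length. At least one HOXC13 form was present on either strand in 51.0% of the KRTAP windows and 18.9% of all windows. The homeodomain letters TAATTG were in 29.4% against 8.00%, the LEF1 letters CTTTGT in 29.4% against 18.7%, and the FOXN1 letters GACGC in 5.88% against 27.2%, each on both strands. The KRTAP windows were poorer in G and C (median 41.3% against 52.7%), whose part in these shares was not tested, and windows of a subfamily share sequence. These matches describe letters, not binding.

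Depth was 8213632 to 16383486 recovered reads per skin library and 6428488 to 9387378 per HFSC library. Grk2, the gene named in the genotype, did not pass the test in either tissue (skin log2 fold change -0.22, adjusted p = 0.343; HFSC -0.24, adjusted p = 0.501, limma), and the deleted part of the gene is not given in the labels used here. The sorted cells carried the gate's markers, with Cd34 at 1157 to 1323 and Itga6 at 2047 to 3290.4 normalised reads in all 6 libraries. Transcripts of the Y-linked gene Ddx3y were at 0.95 and 0 in skin control 5 and skin eKO 3 against 1029.8 to 1304 in the other skin libraries, and at 359 to 434 in the HFSC eKO libraries against 1176 to 1216 in the HFSC controls, so sex and genotype cannot be told apart in HFSC.

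In skin the KRTAP genes were high and low in the same libraries, and none of them differed between the genotypes beyond the spread this gave within each group. A KRTAP gene was counted as present in a library when it had more than 3 reads, since fewer cannot be told from counting error, and 52 of 58 were present in at least 1 skin library. The number present was 2, 21, 47, 52 and 43 in controls 1 to 5, and 3, 44, 50, 51 and 3 in eKO 1 to 5. The summed KRTAP level, in the authors' normalised read counts, was 280.0, 657, 4605, 90211 and 6815 in the 5 controls and 271, 2823, 23234, 7645 and 233 in the 5 eKO libraries. Control 4 stood above all others and eKO 3 came next, while control 1, eKO 1 and eKO 5 were lowest, so that high and low libraries occurred in both groups. As a share of all reads the sum ran from 0.00194% in eKO 5 to 0.830% in control 4. In bulk skin, fewer follicles in a growing phase and less RNA per follicle cannot be told apart.

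**Figure D1:**
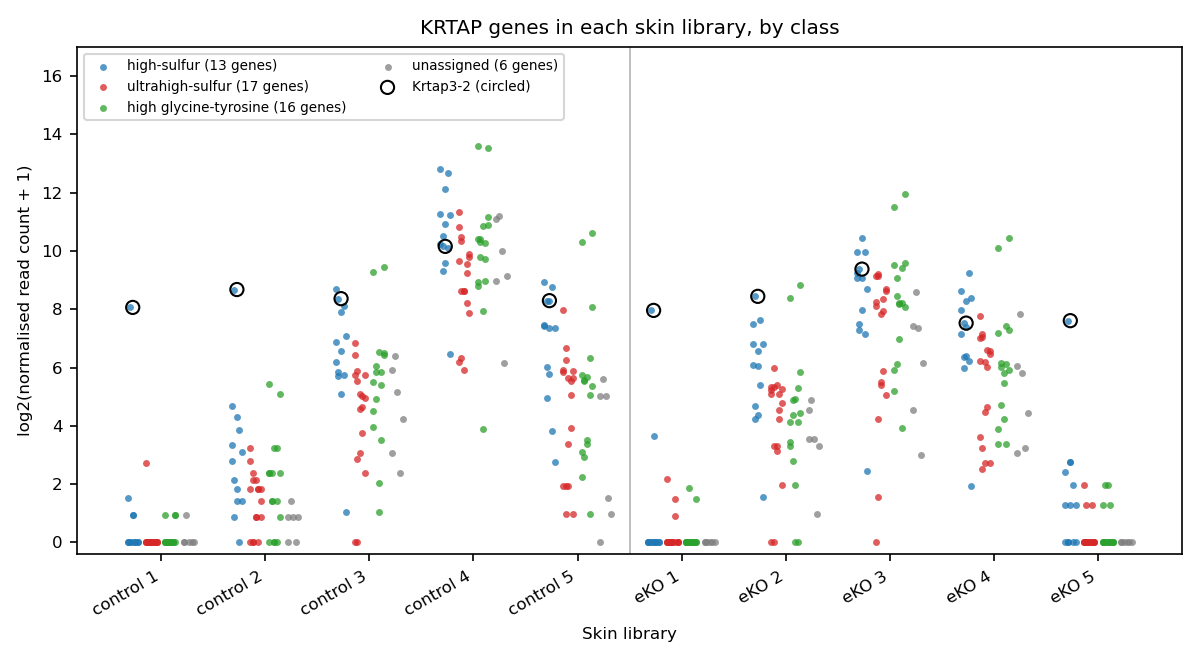
Each point is 1 of 52 KRTAP genes in 1 skin library, as log2(normalised read count + 1) on the vertical axis, with the 10 libraries on the horizontal axis and colours for the 4 classes. Control 4 and eKO 3 hold the highest levels, control 1, eKO 1 and eKO 5 hold 43, 45 and 37 of the 52 genes at 0, and Krtap3-2 (circled) stays at 183 to 1143 normalised reads throughout.

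The highest level of 50 of the 52 genes was in control 4, and eKO 3 was the next highest for 46. The exceptions were Krtap6-3 and Krtap20-2, both of the high glycine-tyrosine class, which were highest in eKO 3. Across the 36 KRTAP genes that passed the filter on low values (a value of at least 10 in at least 5 skin libraries), the standard deviation (SD) of log2(value + 1) over the 10 libraries had a median of 3.68. Over all 16589 genes tested in skin the median SD was 0.329, and 1.03% had an SD over 2, against 35 of these 36 KRTAP genes. Without control 4, an alternative chosen after seeing the data, the median SD was 3.24, and without control 4 and eKO 3 it was 2.89.

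The high glycine-tyrosine class, small proteins rich in glycine and tyrosine, held the most abundant members. In reads per kilobase of exon scaled to each library's total (RPKM), Krtap8-1 and Krtap7-1 had a mean of 297 each over the 10 skin libraries, and the next were Krtap15 at 83.8, Krtap11-1 at 83.1 and Krtap22-2 at 81.9. Control 4 carried these means: without it, an alternative chosen after seeing the data, Krtap7-1 was at 133, Krtap8-1 at 110.2, Krtap22-2 at 37.4, Krtap11-1 at 25.1 and Krtap15 at 23.8. Krtap8-1 had 0, 42.2, 627, 12334 and 1275 normalised reads in the controls and 0, 337, 2889, 1101 and 1.46 in the eKO libraries. Krtap7-1 had 0.946, 32.9, 705, 11954 and 1573 in the controls and 1.78, 455, 4014, 1382 and 0 in the eKO libraries. These 2 had the widest spread of all members, with SDs of log2 value of 4.99 and 4.96, and the groups overlapped throughout.

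Krtap6-1 had 0, 4.22, 44.9, 1349 and 53.2 normalised reads in the controls and 0, 16.7, 727, 146 and 0 in the eKO libraries. Its neighbour in number Krtap6-3 had 0, 0, 3.13, 244 and 10.5 in the controls and 0, 2.94, 295, 43.1 and 0 in the eKO libraries, and so was higher in eKO 3 than in control 4. Krtap20-2, the single member of its subfamily, had 0, 0, 1.04, 14 and 9.5 in the controls and 0, 0, 124, 17.8 and 0 in the eKO libraries. It was the one KRTAP gene whose level in eKO 3 was several times that in control 4.

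Krtap19-5 led the 7 genes of subfamily 19, with 0, 0.843, 84.6, 2303 and 39.9 in the controls and 0, 20.6, 272, 59.0 and 0 in the eKO libraries. Krtap22-2 had 0.946, 4.22, 88.8, 1913 and 268 in the controls and 0, 56.9, 765, 154 and 0 in the eKO libraries, with an SD of log2 value of 4.03. Krtap21-1 reached 852 in control 4 and 293 in eKO 3, and was at 0 to 1.69 in control 1, control 2, eKO 1 and eKO 5. All 3 were high and low in the same libraries as Krtap8-1.

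Among the high-sulfur genes, Krtap15 had 0, 24.5, 419, 7128 and 492 normalised reads in the controls and 0, 179, 1000.4, 393 and 0 in the eKO libraries. Krtap11-1 had 0, 13.5, 277, 6621 and 431 in the controls and 0, 198, 1011, 600.1 and 0 in the eKO libraries. Both were at 0 in control 1, eKO 1 and eKO 5, and their SDs of log2 value, 4.68 and 4.70, came next after the 2 widest. Krtap1-5 led subfamily 1 with 4496 in control 4 and 1386 in eKO 3, Krtap13-1 had 2393 and 419, Krtap2-4 had 762 and 252, Krtap26-1 had 1097 and 141, and Krtap27-1 had 87.7 and 4.49. Each of these 5 was at 0 to 5.85 in control 1, eKO 1 and eKO 5.

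Krtap3-2 stood apart from every other KRTAP gene. It had 267, 409, 329, 1143 and 314 normalised reads in the controls and 248, 347, 665, 183 and 195 in the eKO libraries. It was thus present in all 10 skin libraries, including control 1, eKO 1 and eKO 5, in which 43, 45 and 37 of the 52 genes were at 0, with an SD of log2 value of 0.80. Its Pearson correlation with the median of the other KRTAP genes over 10 libraries, a description, was 0.693, whereas no other tested KRTAP gene was below 0.945. Its neighbours in number behaved differently: Krtap3-1 had 1.89, 0 and 4.39, and Krtap3-3 had 0, 11.6 and 5.85, in control 1, eKO 1 and eKO 5. In the 6 HFSC libraries Krtap3-2 had 2, 2, 0, 0, 0 and 0 reads.

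All 17 ultrahigh-sulfur genes present in skin were highest in control 4, and eKO 3 came next for all but Krtap5-2 and Krtap5-3, for which eKO 4 did. Krtap9-3 had 0, 8.43, 114, 2584 and 249 in the controls and 0, 39.3, 567, 217 and 2.92 in the eKO libraries. Krtap17-1 had 5.68, 5.9, 85.6, 1818 and 57.0 in the controls and 3.56, 36.3, 277, 129 and 0 in the eKO libraries, and so kept a few reads in control 1 and eKO 1, where 43 and 45 of the 52 genes were at 0. Krtap4-1 reached 1419 in control 4 and 589 in eKO 3, and Krtap5-5 reached 604 and 58.4. Of the unassigned genes, Krtap28-10 reached 2347 and 385, Krtap16-3 reached 2194 and 170.2, Krtap31-1 reached 568 and 70.0, and Krtap29-1 reached 70.0 and 7.06.

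The makeup of the KRTAP pool differed between libraries in which it could be counted well. The high glycine-tyrosine class gave 43.2% of KRTAP reads in control 4 (95% Wilson interval 42.9 to 43.5), 49.1% in eKO 3 (48.6 to 49.7), 51.4% in control 5 (50.2 to 52.5) and 37.1% in eKO 2 (35.3 to 38.8). It gave 42.2% in control 3 (40.7 to 43.6) and 44.4% in eKO 4 (43.3 to 45.5). The intervals cover counting error only, and libraries of both groups lay at either end. The highest shares, in control 5 and eKO 3, were those of the skin libraries nearly without Ddx3y transcripts. The part of sex in these shares was not tested. In control 1, eKO 1 and eKO 5, where Krtap3-2 gave most of the KRTAP reads, the high-sulfur class made up 96.6%, 96.1% and 93.7%.

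The subfamilies also differed in how far eKO 3 lay below control 4, the 2 libraries with the highest sums. Over the 51 genes with at least 30 reads in control 4, levels in eKO 3 were a median of 54.9% of those in control 4 for subfamily 6 (4 genes, 42.6% to 121%), 45.0% for subfamily 4 (8 genes, 37.2% to 82.4%) and 40.02% for Krtap22-2. They were 9.67% for subfamily 5 (5 genes, 0% to 13.9%), 11.8% for subfamily 19 (7 genes, 2.83% to 25.9%), 8.40% for subfamily 31 (2 genes) and 5.12% for Krtap27-1. Subfamilies 4 and 5, both ultrahigh-sulfur, did not overlap, and neither did subfamilies 6 and 19, both high glycine-tyrosine. This sets 1 library against 1 other and has no replicate check. The libraries also differed in Ddx3y, which was at 0 in eKO 3 and not in control 4, and its part was not tested.

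**Figure D2:**
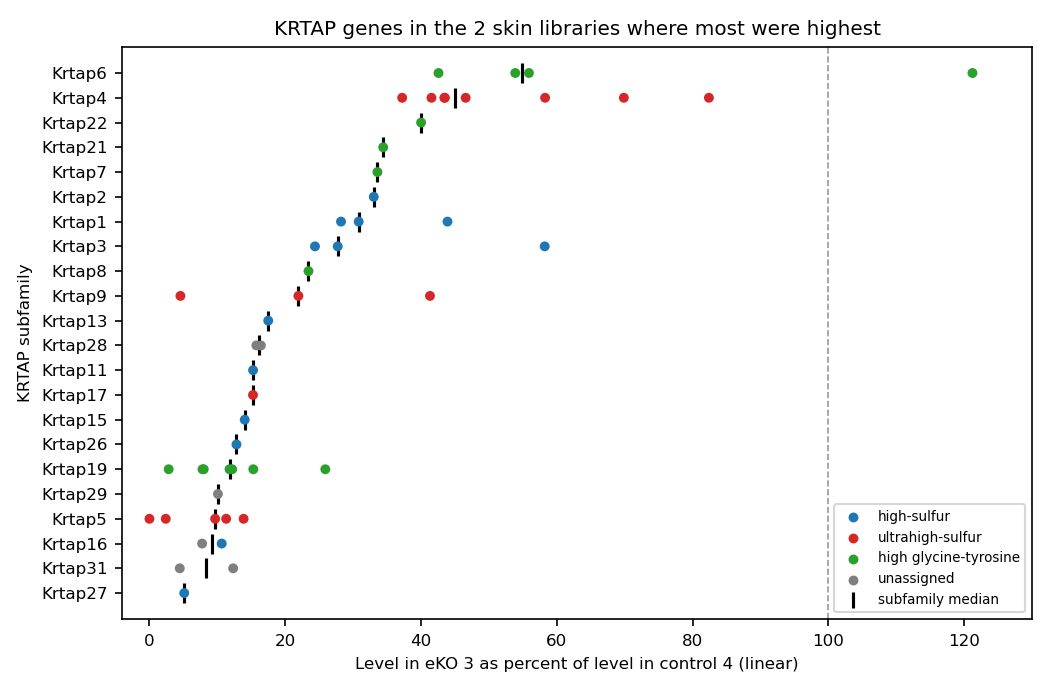
Each point is a KRTAP gene, with its level in skin eKO 3 as a percentage of its level in skin control 4 on the horizontal axis (linear) and its subfamily on the vertical axis; bars are subfamily medians. Genes with under 30 reads in control 4 (Krtap20-2 among them) are left out. Subfamilies 6 and 4 lie highest, with medians of 54.9% and 45.0%, and Krtap6-3 lies beyond 100%.

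Between genotypes, no member passed the test in skin. Of the 65 members 42 were tested, and 0 were called in either direction by limma, 0 had an unadjusted p under 0.05, and edgeR and DESeq2 called 0. Over all genes tested, 0.229% were called higher and 0.145% lower in eKO. No member had every eKO library above every control library, which 1.74% of all genes did. The log2 fold changes of the 36 tested KRTAP genes had a median of -0.71 (all genes 5.91e-05), ran from -1.81 to 0.85, and had standard errors (SE) of 0.44 to 2.85. On the recovered reads the median was -1.49 by edgeR and -1.50 by DESeq2, with 36 of 36 below 0 in both.

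That median rested on single libraries. It was below 0 for 33 of the 36 KRTAP genes, but without control 4 it was below 0 for 3 of 36 and the median was 0.63. Without eKO 1 it was below 0 for 14 of 41 with a median of 0.30, and without eKO 5 for 17 of 41 with a median of 0.12. Without control 1 the median was -1.90 (41 of 41 below 0), without control 2 it was -1.40, without eKO 3 it was -1.80 (36 of 36) and without eKO 4 it was -1.43. The lowest adjusted p of any member over all these was 0.243.

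The regulators and the other matrix proteins followed the KRTAP genes to different degrees. Padi3 had 3.78, 26.1, 334, 6304 and 719 normalised reads in the skin controls and 7.12, 273, 3488, 1702 and 5.85 in the eKO libraries. S100a3 had 3.78, 4.22, 19.8, 252 and 29.5 in the controls and 8.91, 17.7, 90.5, 31.8 and 11.7 in the eKO libraries. Both were highest in control 4 and next in eKO 3, as the KRTAP genes were, and Padi3 varied as widely as they did, with an SD of log2 value of 3.91 against 1.78 for S100a3.

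Msx2 had 87.0, 63.2, 144, 1831 and 170.1 in the controls and 31.2, 126, 536, 329.5 and 65.8 in the eKO libraries. Dlx3 had 339, 374, 643, 4318 and 566 in the controls and 341, 571, 1921, 1358 and 525 in the eKO libraries. Foxn1 had 225, 284, 361, 1443 and 297 in the controls and 175, 272, 622, 349 and 278 in the eKO libraries. These 3 factors were at no point near 0, and their SDs of log2 value were 1.70, 1.21 and 0.86, the last being the narrowest of the 42 tested members after Krtap3-2.

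Hoxc13, a homeobox factor that acts on hair keratin genes, kept its highest levels in the same 2 libraries but departed from the others at the low end. It had 68.1, 69.1, 188, 1973 and 278 in the controls and 335, 153, 1211, 617 and 282 in the eKO libraries. In control 1, eKO 1 and eKO 5 the median of the 36 KRTAP genes was 0, yet Hoxc13 was at 68.1 in control 1 and at 335 and 282 in eKO 1 and eKO 5, which is above its level in control 3 with 47 KRTAP genes present. No test was made on these libraries, since they were picked by their values.

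Over the 10 libraries the Pearson correlation of log2 values with the KRTAP median was 0.990 for Padi3, 0.920 for Msx2, 0.905 for S100a3, 0.883 for Dlx3, 0.840 for Foxn1 and 0.724 for Hoxc13. All values come from the same libraries and size factors, and these are descriptions without a test. Without eKO 1 and eKO 5, 2 of the 3 libraries farthest from the median, the value for Hoxc13 was 0.945, and without control 4 it was 0.590, while those of the other 5 ran from 0.837 to 0.985 and from 0.827 to 0.992. Padi3 was therefore the member most like the KRTAP genes under each of these choices, and Hoxc13 the one that moved most. Without all 3 of the farthest libraries, S100a3 at 0.990 was above Padi3 at 0.973. Tchh was at 0 in every library and has no correlation.

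**Figure D3:**
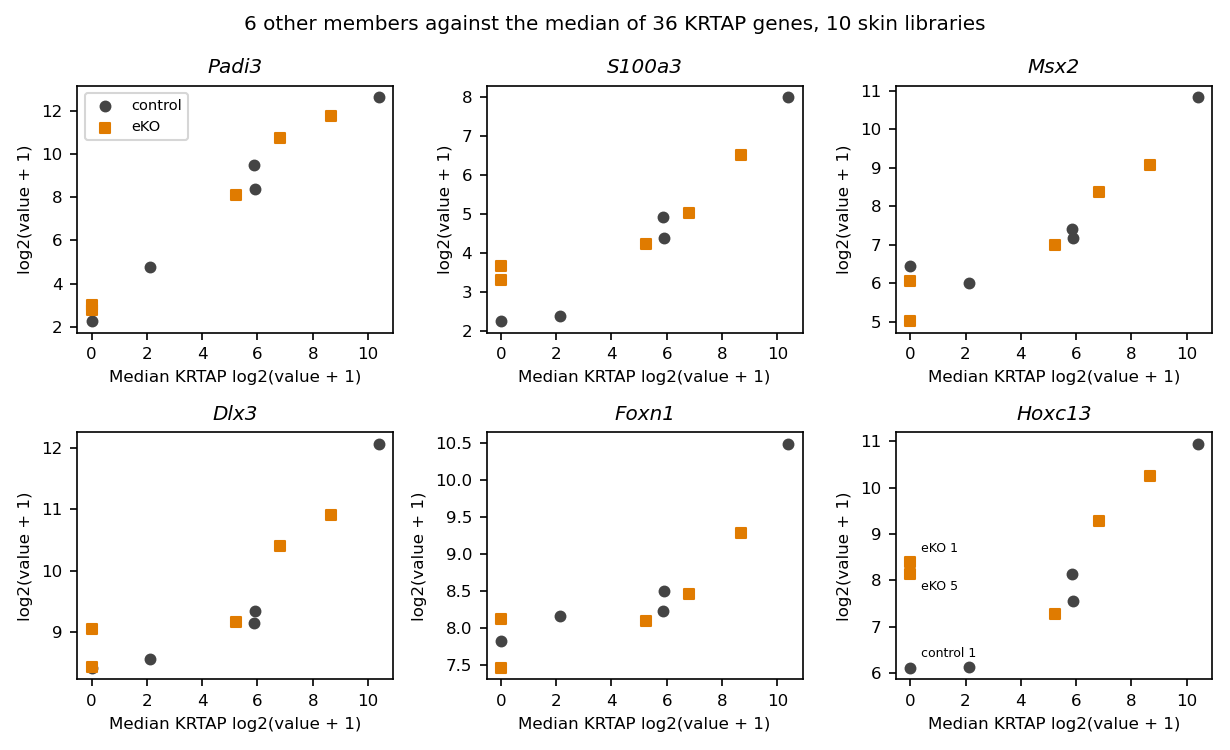
Each panel shows 1 of 6 members, with its log2(normalised read count + 1) on the vertical axis against the median of 36 KRTAP genes on the horizontal axis, for 5 control (circles) and 5 eKO (squares) skin libraries. Points rise together in all panels, and in the Hoxc13 panel eKO 1 and eKO 5 lie above control 1 at a KRTAP median of 0.

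Of the other gene lists of the follicle, none had a gene past the test in skin. The 13 hair shaft keratins tested, which form the filaments that KRTAP proteins bind, had summed levels of 40.7 to 37078 in the controls and 24.05 to 7588 in the eKO libraries. The 8 inner root sheath keratins had summed levels of 26.5 to 151077 in the controls and 80.2 to 62653 in the eKO libraries. Of 17 other matrix regulators, 8 crosslinking and adhesion genes and 6 cell cycle genes tested, 0 were called by limma, and the cell cycle genes varied less than the KRTAP genes, with summed levels of 802 to 4401 in the controls and 1401 to 3104 in the eKO libraries. Mki67, which marks dividing cells, had 538, 479.8, 831, 2618 and 763 in the controls and 786, 1194, 1419.7, 1855 and 1294 in the eKO libraries. Among markers of other cell types, 2 of 6 sebaceous gland genes were higher in eKO skin and no other list had a gene past the test.

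In sorted stem cells almost no KRTAP gene was detected. At the depth of these libraries, 43 of 58 had no read in any of the 6 HFSC libraries, including 37 of the 52 that were present in skin. The other 15 together had 831 reads, 537 of them (64.6%) from Krtap17-1. More than 3 reads in a library were reached by 6 genes, which were Krtap17-1, Krtap15, Krtap16-1, Krtap29-1, Krtap11-1 and Krtap7-1. Only Krtap17-1 was present in all 3 controls, and 3 genes were present in all 3 eKO libraries. Krtap8-1, among the most abundant in skin, had 0, 0 and 0 reads in the controls and 1, 3 and 1 in the eKO libraries. A gene with no read may still have been present below 3 reads per library, so these values limit the level and do not show absence.

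Most KRTAP reads in HFSC came from genes that gave few of the KRTAP reads in skin. Krtap15, Krtap11-1 and Krtap7-1, among the most abundant in skin, also had reads in HFSC, 110, 31 and 16 over the 6 libraries. Krtap17-1, Krtap16-1 and Krtap29-1, which lie next to each other beside Krt33a in the type I hair keratin cluster on chromosome 11, gave 78.3% of KRTAP reads in HFSC and 3.06% in skin. The summed KRTAP level was 62.8, 59.96 and 61.0 in the controls and 255, 183 and 156 in the eKO libraries, and the groups did not overlap. The ultrahigh-sulfur class gave 74.6%, 80.7% and 77.05% of KRTAP reads in the controls and 60.2%, 62.3% and 61.6% in the eKO libraries, all of it from Krtap17-1.

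Of the 65 members 7 passed the filter in HFSC (a value of at least 10 in at least 3 libraries), and 5 of these rose in eKO by limma while 0 fell, with 0 lower at an unadjusted p under 0.05. By edgeR 5 rose and 0 fell, and by DESeq2 6 rose, Dlx3 being the other, and 0 fell. Over all 13784 genes tested there, 10.7% were called higher and 8.74% lower. All 7 had every eKO library above every control library, against 18.9% of all genes. Krtap15 and Padi3 passed the filter only through the eKO libraries and so had to differ, and these counts are no support for them. Of the other 5, Krtap17-1, Hoxc13 and Foxn1 rose, and Dlx3 and Msx2 did not pass the test.

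Padi3 showed the widest difference of the 7. It had 0, 4.21 and 0 normalised reads in the controls and 223, 158 and 308 in the eKO libraries, with a log2 difference of 7.003 ± 0.70 (SE) on the log2(value + 1) scale. Padi3 passed the filter only through the eKO libraries and so had to differ, and its p is not used here. Each eKO library was far above the highest control. From 4 reads pooled over the controls and 727 over eKO, the ratio of rates was 169 with a 95% counting interval of 65.9 to 623. That interval leaves out the spread between libraries. It is no support for a difference, which the filter had fixed.

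Krtap15 had 0.997, 0 and 0 normalised reads in the controls and 33.4, 31.8 and 38.3 in the eKO libraries. That is 1 read in the controls against 109 in eKO, a ratio of rates of 102 with a 95% counting interval of 17.8 to 4048. The limits of the Padi3 interval hold for this interval as well. The fitted log2 fold change, 4.81 ± 0.87 (SE), depends on the pseudocount of 1, and its p is not used here for the same reason as that of Padi3. Its level in the 3 eKO libraries was even, while Krtap11-1, close to it in skin level per kilobase, had 2, 1 and 5 reads in the controls and 8, 15 and 0 in eKO.

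Krtap17-1 had 46.9, 48.4 and 47.0 normalised reads in the controls and 154, 114 and 95.9 in the eKO libraries. The controls were nearly equal and the eKO libraries were all higher, with a log2 fold change of 1.31 ± 0.30 (SE) and a limma adjusted p of 0.00867. Its neighbours had too few reads for the test. Krtap16-1 had 2, 6 and 6 reads in the controls and 31, 5 and 8 in eKO, and Krtap29-1 had 6, 0 and 0 in the controls and 40, 9 and 1 in eKO, so both overlapped between groups and were highest in eKO 1.

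Hoxc13 was already well expressed in control stem cells. It had 208, 228 and 247 normalised reads in the controls and 449.6, 517 and 537 in eKO, which gave a log2 fold change of 1.13 ± 0.16 (SE) and a limma adjusted p of 0.000307. Foxn1 had 6.98, 27.3 and 53.0 in the controls and 102, 116 and 75.6 in eKO, and its log2 fold change was 2.08 ± 0.58 (SE) at an adjusted p of 0.0237. Its controls were spread over a wide range, and without control 1 the log2 fold change was 1.31 with a limma adjusted p of 0.0634. The adjusted p was 0.0573 without control 2, 0.0605 without eKO 1 and 0.0751 without eKO 2.

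Dlx3 and Msx2 did not pass the threshold of 0.05. Dlx3 had 143, 208 and 196 in the controls and 255, 314 and 258 in eKO, and its log2 fold change was 0.60 (95% interval 0.16 to 1.05) with a limma adjusted p of 0.0545, and DESeq2 gave an adjusted p of 0.0426. Msx2 had 184, 192 and 183 in the controls and 259, 215 and 279 in eKO, and its log2 fold change was 0.42 (0.02 to 0.82) with an adjusted p of 0.137. S100a3 had 3, 10 and 6 reads in the controls and 8, 3 and 4 in eKO, and was not tested. Ordered by mean level in RPKM in the HFSC controls, the 7 tested members were Hoxc13 at 13.8, Dlx3 at 10.4, Krtap17-1 at 9.26, Msx2 at 8.46, Foxn1 at 1.34, Padi3 at 0.0602 and Krtap15 at 0.0472. The control means of Padi3 and Krtap15 rest on 4 reads and 1 read, so the order of these genes there has no meaning. In eKO the order was Hoxc13 at 28.9, Krtap17-1 at 22.5, Dlx3 at 14.96, Msx2 at 10.8, Padi3 at 9.44, Krtap15 at 4.65 and Foxn1 at 4.31. The SDs in eKO were 0.48 for Krtap15 and 0.90 for Foxn1, so their order lay within the spread.

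**Figure D4:**
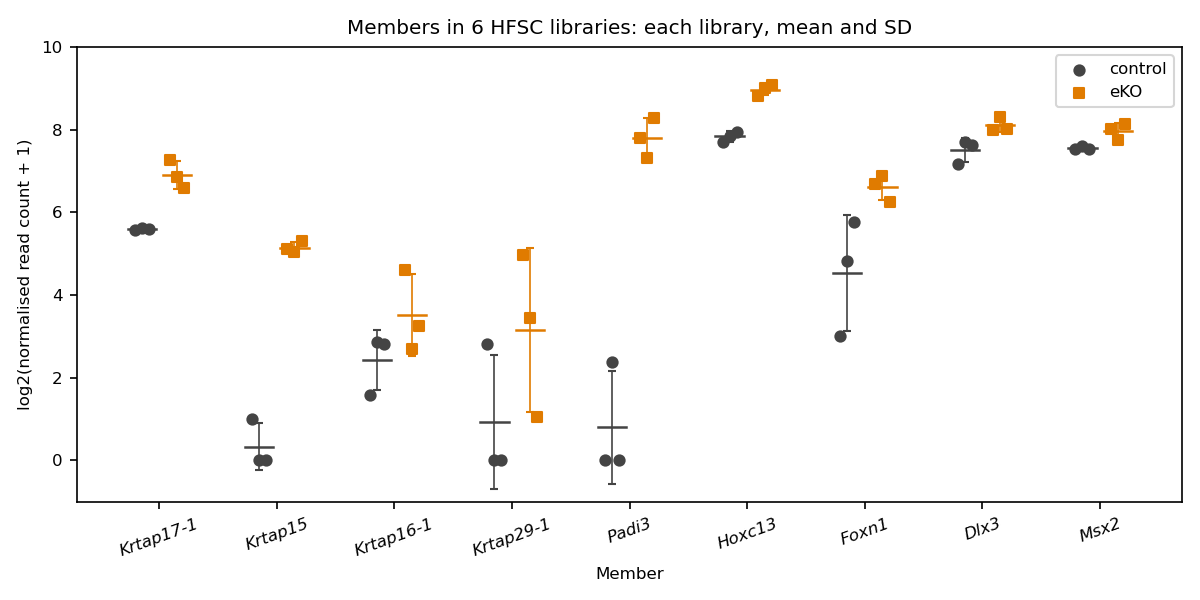
Points are log2(normalised read count + 1) of 9 members in 3 control (circles) and 3 eKO (squares) HFSC libraries, with the mean (long bar) and SD (whiskers) of each group. Padi3 and Krtap15 go from near 0 in the controls to 158 to 308 and 31.8 to 38.3 normalised reads in eKO, Krtap17-1 and Hoxc13 rise from detectable levels, and Krtap16-1 and Krtap29-1 overlap.

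Other genes of the pathway in HFSC were read from lists that do not hold the members. The 1 hair shaft keratin tested, Krt35, a keratin of the early shaft, was at 0, 0 and 0 in the controls and 227, 162 and 165 in eKO, at least 60.6-fold higher against a floor of 3 reads per library. It passed the filter only through eKO and so had to differ. Of 7 inner root sheath keratins tested, 5 rose and 0 fell, led by Krt73 (log2 fold change 4.68), Krt71 (2.39) and Krt28 (1.74). Of 17 other matrix regulators tested, 4 rose and 0 fell, among them the transcription factors Ovol1 (1.80), Prdm1 (1.69) and Lef1 (1.23). Of 4 crosslinking and adhesion genes tested, Padi4 (3.59, through the filter only by its eKO levels), Tgm3 (3.30) and Dsc1 (2.21) rose and Tgm5 fell by 1.00 on the log2 scale. Of 6 cell cycle genes, Mki67 alone rose (1.35). Over all genes tested in HFSC, 10.7% were called higher and 8.74% lower, so 1 gene called in a short list says little.

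Markers of several other cell types moved with these members in HFSC. Of the genes tested in each list, 6 of 7 endothelial, 5 of 6 sebaceous gland and 5 of 6 differentiated epidermis markers rose. However, 6 of the 7 endothelial genes (Cdh5, Esam, Kdr, Plvap, Tie1 and Vwf) and 1 sebaceous gland gene, Cidea, passed the filter only through eKO and so had to differ, as did the fibroblast gene Dcn. Without them, 1 of 1 endothelial gene (Pecam1), 4 of 5 sebaceous gland and 0 of 2 fibroblast genes rose. The summed levels went from 14.7 to 44.0 in the controls to 1016 to 1209 in eKO for endothelium (Cldn5 at 0), from 2733 to 2872 to 11086 to 11954 for sebaceous gland, and from 2531 to 4360 to 16698 to 17502 for differentiated epidermis. The share called higher over all genes tested in HFSC was 10.7%. Of 3 leukocyte markers tested 1 rose, of 3 dermal fibroblast markers 1 (Dcn) rose, and of 3 melanocyte markers 0 passed the test. The 1 adipocyte marker tested rose, while Adipoq of that list was at 0. Itgam of the leukocyte list and Lum of the fibroblast list were also at 0. Summed levels in the controls and in eKO were 163 to 215 and 847 to 1522 for leukocytes. They were 2.99 to 24.2 and 51.5 to 66.0 for adipocytes. Fibroblast sums (134 to 156 and 84.4 to 134) and melanocyte sums (191 to 254 and 142 to 174) did not rise. Of 9 bulge stem cell markers, Itga6 rose by 0.58 and Lgr5 fell by 0.94 on the log2 scale, and their sum was 154045 to 158242 in the controls and 134666 to 153746 in eKO. The part of these cells in the differences of Padi3, Krtap15, Krtap17-1, Hoxc13 and Foxn1 was not tested.

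The genotype effects in HFSC and skin were also compared directly. The labels give 8 months of age for skin and 18 for HFSC, and the HFSC groups also differed in Ddx3y. Tissue, age, sex and set of libraries cannot be told apart in this comparison. The difference of effects, HFSC minus skin on the log2 scale, passed the test for 0 of the 7 members by limma and by edgeR, while 3.44% of all genes were called more positive in HFSC, and 2 had an unadjusted p under 0.05. These were Foxn1, at 2.44 (95% interval 0.66 to 4.21, adjusted p = 0.1002), and Padi3, at 7.23 (0.80 to 13.7, adjusted p = 0.181). Krtap15 differed by 6.62 (-0.82 to 14.1, adjusted p = 0.295), Krtap17-1 by 2.53 (-2.62 to 7.67, adjusted p = 0.601) and Hoxc13 by 0.24 (-2.24 to 2.73, adjusted p = 0.936). These intervals are wide, and a p that misses the threshold does not show that the effects were alike. Padi3 and Krtap15 entered this comparison only through their HFSC eKO levels, so their HFSC effect had to be positive. Their p-values and intervals here are therefore no support.

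Finally, 6 members had no read in any of the 16 libraries: Tchh, Krtap10-4, Krtap10-10, Krtap12-1, Krtap14 and Krtap24-1. All 6 overlap another gene in the GENCODE M21 annotation, while 2 of the 59 other members do, Krtap15 and S100a3. Reads of these 2 could also have been lost or shared in counting, which was not tested. Gm37245, which lies antisense to Tchh, had 3.78, 12.6, 19.8, 256 and 27.6 normalised reads in the skin controls and 8.02, 16.7, 148, 137 and 10.2 in the eKO libraries. Tspear, which holds the genes of subfamilies 10 and 12, had 17.03, 21.9, 101, 1551 and 147 in the controls and 64.1, 129.6, 360.2, 397 and 132 in the eKO libraries. Both were highest in control 4, as the KRTAP genes were. How the authors' counting treated reads in overlapping genes is not given in the sources used here, and its part in these zeros was not tested, so the 6 genes are listed at 0 and not read as silent. The KRTAP genes of a subfamily are also close copies of each other, and reads could be split between or lost from them in counting.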

How the data were processed

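Poly-A RNA of 10 skin libraries and RNA of 6 sorted HFSC libraries was sequenced, per the labels' protocols. The submitters' processing notes name the build GRCm39 for all samples, and featureCounts and DESeq2 for skin; aligner, annotation and strand treatment are not given in the sources used here. Each deposited table holds a signal: per the values, gene read counts divided by 1 size factor per library. Whole reads were recovered for 100% of the nonzero values (tolerance 0.01), 8213632 to 16383486 per skin library and 6428488 to 9387378 per HFSC library. Each table was normalised and fitted on its own, on log2(value + 1) with limma 3.58.1 (trended prior, genes at 10 or more in 5 skin or 3 HFSC libraries, Benjamini-Hochberg over all genes tested, threshold 0.05), and tested on simulated data. The simulation used the same dispersion for all genes and does not cover a spread as wide as that of the KRTAP genes in skin. The difference of effects was 1 fit over 16 libraries. Alternatives were edgeR 4.0.16 and DESeq2 1.42.0 on the recovered reads, other pseudocounts, scalings and filters, and libraries left out. Names, neighbours and exon lengths came from GENCODE M21, on another build than the authors', so levels per kilobase are approximate, and promoters from RefSeq.

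Members and lists were chosen with earlier results of these data known. Named genes were the 7 members that are not KRTAP genes, the highest of each subfamily in skin, members past the threshold, the 10 with most HFSC reads, the 5 widest and 5 narrowest in skin, and up to 3 called genes per list. Genes outside this rule (Krtap3-1, Krtap3-3, Krtap5-2, Krtap5-3, Krtap6-3, Gm37245, Tspear, Ddx3y and the marker genes whose passing of the filter is described) were named after their values were seen. Intervals of shares and of ratios of reads cover counting error only; those of log2 fold changes come from limma and the spread between libraries.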

Additional observations from a re-analysis of the deposited data

Results flagged for a closer look

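Skin control 4 was far above the other 4 controls for 29 of the 31 quantities examined (the 7 other members, the highest gene of each of 23 subfamilies, and the KRTAP sum), by Dixon's ratio of the gap to the range. eKO 3 was far above the other 4 eKO libraries for 8. The ratio was taken on normalised read counts and not on their logs. It was over its 95% limit for 5 samples in 37 of the 60 groups that varied. That limit flags about 1 group in 20 for normally distributed values. These counts are spread too unevenly for that rate to hold, so the flags describe the unlogged values only. Genes that rise together are also not independent. The gene of each subfamily was picked by its mean over the 10 skin libraries, control 4 among them. Flags of these genes in control 4 may therefore follow in part from that choice. In control 4 the flagged normalised read counts were 4318 (Dlx3), 1443 (Foxn1), 1973 (Hoxc13), 1831 (Msx2), 6304 (Padi3) and 252 (S100a3) for the regulators and other proteins, and 4496 (Krtap1-5), 6621 (Krtap11-1), 2393 (Krtap13-1), 7128 (Krtap15), 2194 (Krtap16-3), 1818 (Krtap17-1), 2303 (Krtap19-5), 762 (Krtap2-4), 852 (Krtap21-1), 1913 (Krtap22-2), 1097 (Krtap26-1), 87.7 (Krtap27-1), 2347 (Krtap28-10), 70.0 (Krtap29-1), 1143 (Krtap3-2), 568 (Krtap31-1), 1419 (Krtap4-1), 604 (Krtap5-5), 1349 (Krtap6-1), 11954 (Krtap7-1), 12334 (Krtap8-1) and 2584 (Krtap9-3) for the KRTAP genes, with a KRTAP sum of 90211. In eKO 3 they were 90.5 (S100a3), 1386 (Krtap1-5), 272 (Krtap19-5), 124 (Krtap20-2), 293 (Krtap21-1), 765 (Krtap22-2), 589 (Krtap4-1) and 727 (Krtap6-1). Tchh, at 0 throughout, and Krtap20-2 in the controls did not stand out. No cause was tested.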

How the results depend on the processing

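In skin 0 members were called higher or lower under all 17 alternatives, and the signs of uncalled values changed with the libraries used, as given above. In HFSC 5 members were called higher and 0 lower, and the 14 alternatives called 4 to 6 higher and 0 lower. Krtap17-1 and Hoxc13 were called in all 14, as were Padi3 and Krtap15, whose difference the filter on low values fixes. Foxn1 was called in 10 and Dlx3 in 1 (DESeq2). The difference of effects called 0 members, and 0 to 1 when each library was left out (1, Foxn1, at 3.05 with an adjusted p of 0.0493, without HFSC control 3). Counting 1 read as present gave 4 KRTAP genes in all 3 HFSC controls in place of 1, 6 in all 3 eKO libraries in place of 3, and 15 in at least 1 library in place of 6. The correlation of Hoxc13 with the KRTAP median, 0.724, was 0.945 without 2 of the 3 libraries tied farthest from the median, 0.968 without all 3 and 0.590 without control 4, the last 2 chosen after seeing the data.

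HFSC replicates share numbers 1 to 3, but same-numbered libraries did not deviate together (r = -0.06, -0.02 and -0.03), and the labels give no shared animal. With the replicate number as a block, 5 members were called higher and 0 lower, and Foxn1 had a log2 fold change of 2.08 and an adjusted p of 0.00832. Skin replicates carry no shared numbers. Most KRTAP genes in HFSC had too few reads for the groups to be compared at this depth.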
